A study of Mus musculus with 4 samples.

Results

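Loss of Aspp1 was examined in LSK cells that lack p53, by comparing the Aspp1-/-p53-/- array with the p53-/- array of a series of 4 arrays. LSK cells (lineage(-) Sca-1(+) cKit(+)) are the part of mouse bone marrow in which stem cells and multipotent progenitors lie. The p53-/- mice were Mx1-Cre(+)p53flox/flox and the Aspp1-/-p53-/- mice were Mx1-Cre(+)Aspp1-/-p53flox/flox, so Mx1-Cre and deletion of floxed p53 were common to both, and loss of Aspp1 was the labelled difference. WT and Aspp1-/- LSK cells, whose labels name no Mx1-Cre and whose arrays lay in another row of the slide, are given beside them. All mice were male C57BL/6, received 5 injections of pIpC (a double-stranded RNA analogue that induces interferon) at 8 weeks of age, and gave their cells at 12 weeks, 4 weeks after it. The design text states 400 μg of pIpC per injection, whereas the sample labels read 402 μg for p53-/- and 403 μg for Aspp1-/-p53-/-. RNA of 3 mice was pooled per genotype and hybridised to 1 array, so the spread between mice was not measured and no difference has a test.

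ASPP1, encoded by Ppp1r13b, belongs to a family of proteins with ankyrin repeats and an SH3 domain that bind p53. ASPP1 itself favours the binding of p53 to the promoters of pro-apoptotic genes. Family members also bind protein phosphatase 1 and proteins of the Hippo pathway, which gives Aspp1 partners other than p53. Mx1-Cre acts wherever interferon reaches the Mx1 promoter, in blood cells and in several other tissues, so its action is not limited to LSK cells.

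Of 22228 RefSeq genes with a probe, 13484 were well above the local background on both arrays. Among them 49 genes (0.363%) were at least 2-fold higher and 99 genes (0.734%) at least 2-fold lower in Aspp1-/-p53-/- than in p53-/- cells, 148 in all (1.1%). The genes that were lower held a group of secondary and tertiary neutrophil granule genes (10 of 16 measured), a group of transcription factors of the early response to stimulation (6 of 27, among them Fosl2, Atf3 and Nr4a1) and several genes of activated cells such as Plaur, Cd28, Cd83 and Ccl4. Genes of cell division, of stem cells, of the interferon response and of primary granules had no member past 2-fold. These lists held 21 to 46 measured genes, so few such members would be expected from the share of all genes (1.1%). Most of the 49 genes that were higher gave dim signals.

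The targeted gene went with the labels. Ppp1r13b (probe on chromosome 12, 113066670 to 113066729, minus strand, mm9) gave signals of 13182 (WT), 2247 (Aspp1-/-), 12759 (p53-/-) and 2060 (Aspp1-/-p53-/-), where signal is the background-subtracted scanner intensity before scaling. Where 4 signals are listed below, they stand in this order of genotypes. It was thus high on both arrays with Aspp1 and low on both without it, and the difference between the Aspp1-/-p53-/- and p53-/- arrays was −2.52 on the log2 scale, with a scanner error of 0.20. Trp53 read 730, 820, 164 and 169, so it was equally low on the 2 arrays compared (0.16). The relatives Trp53bp2 (which encodes ASPP2; 0.08), Ppp1r13l (iASPP; −0.04), Trp63 (0.06) and Trp73 (−0.07) lay close to 0. All differences below are log2, Aspp1-/-p53-/- less p53-/-, after division of every signal by the 75th percentile of its array, which was 580 for p53-/- and 535 for Aspp1-/-p53-/-.

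The genes that define the sorted cells differed little. Kit (−0.06), the Sca-1 gene Ly6a (−0.01), Cd34 (0.09), Flt3 (−0.01), Procr (−0.16) and Slamf1 (−0.19) were measured on both arrays. Among markers of mature lineages, Itgam (0.06), Ptprc (−0.03), Ly6g (−0.16) and Cd4 (−0.20) were all above background, and Cd3e read 805 in p53-/- and 430 in Aspp1-/-p53-/- cells (−0.79, within 2-fold). Cd8a and Ms4a1 were not well above background on either array. The Y-linked genes Ddx3y (0.03) and Eif2s3y (−0.08) were expressed on both, as the labelled sex requires.

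Most genes were close to 0. The median difference over 13484 genes was 0.0033, the standard deviation 0.25, and 82.1% of genes lay within 0.2 of 0. The spread widened with falling signal: in 4 equal groups by signal, 3.23% of the dimmest genes passed 2-fold against 0.593%, 0.267% and 0.297% of the brighter groups. The dimmest group held 47 of the 49 genes that were higher and 62 of the 99 that were lower. All 19 genes past 2-fold in the 2 brightest groups were lower in Aspp1-/-p53-/- cells. Just inside the rule lay Nr4a1 (−1.001) and DXBay18 (−1.01) below and Actn2 and Nr0b2 (both 1.01) above, and just outside lay Adgre5 and Ifitm6 (both −0.99), Camk2b (0.99) and Klhl42 (0.98). Normexp background correction was run as an alternative, with an offset of 50 added to every signal, which by itself pulls dim signals together. The part of the offset in the changes was not separated from that of the background estimate. Under this alternative 19 of 72 named genes no longer passed 2-fold. They included DXBay18 (−0.57), Actn2 (0.68) and Nr0b2 (0.44), and for the others described below the value under normexp follows the main value.

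**Figure D1:**
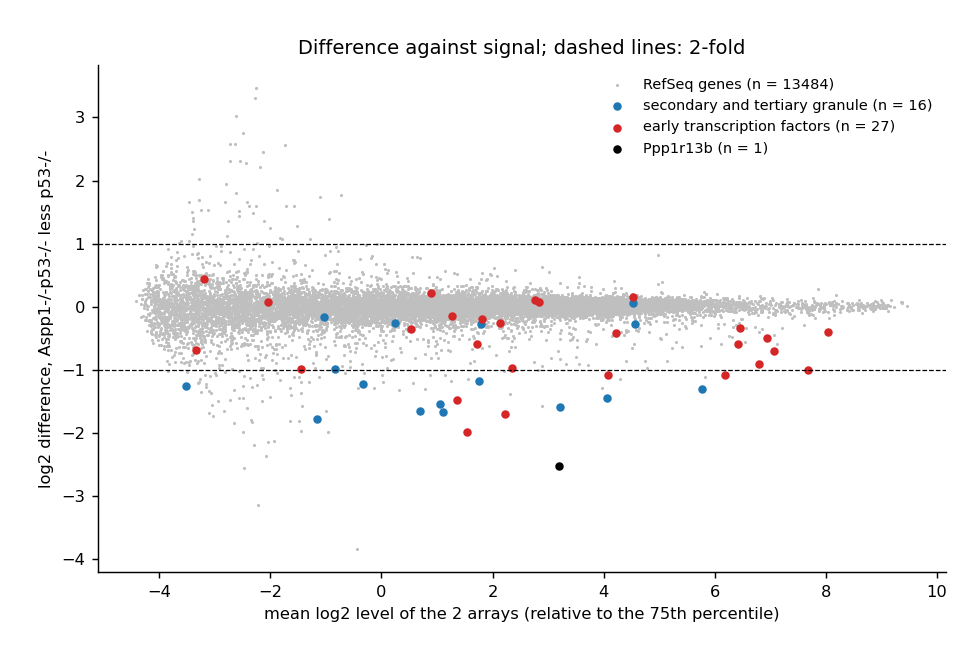
Log2 difference, Aspp1-/-p53-/- less p53-/-, against the mean log2 level of both arrays for 13484 RefSeq genes (grey), with secondary and tertiary granule genes in blue, early transcription factors in red and Ppp1r13b in black; dashed lines mark 2-fold. Differences above 2-fold cluster at low levels, whereas the granule and early genes past 2-fold lie below 0 over the whole range of levels.

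Granule genes of neutrophils had the largest median difference of the lists. Secondary and tertiary granule proteins are made late in neutrophil maturation and kill or starve microbes. Their transcripts mark cells well past the LSK stage. The list also holds S100a8 and S100a9, whose products lie in the cytosol. Of 23 listed genes 16 were measured. Of these 10 were at least 2-fold lower and 15 were below 0, against 0.734% and 48.7% of all genes. The median difference was −1.24, against 0.0033 for all genes. In 15 of the 16 the Aspp1-/-p53-/- array gave the lowest level of the 4 arrays, as it did in 27.2% of all 13484 genes. This count uses the same difference again, since a gene below 0 cannot be lowest on the p53-/- array.

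Ltf, which encodes the iron-binding lactoferrin, had signals of 2617 (WT), 2308 (Aspp1-/-), 2237 (p53-/-) and 649 (Aspp1-/-p53-/-) (−1.67). Ngp, encoding neutrophilic granule protein, gave 1859, 1453, 1664 and 489 in the same order (−1.65). Camp, the gene of the cathelicidin antimicrobial peptide, gave 9124, 8579, 9293 and 2861 (−1.58), and its other probe differed by −1.63. In each of these genes the first 3 arrays lay closer to each other than to the Aspp1-/-p53-/- array, which was the lowest. Lcn2, whose product binds the iron carriers of bacteria, gave 2263, 2053, 2059 and 654 (−1.54). The calprotectin genes S100a8 (18744, 15697, 15936 and 5418; −1.44) and S100a9 (53988, 50241, 49457 and 18476; −1.30) encode the main calcium-binding proteins of neutrophil cytosol and were likewise lowest on the Aspp1-/-p53-/- array. Retnlg (−1.77), Mmp8, the neutrophil collagenase (−1.25; normexp −0.44), Wfdc21 (−1.22) and Chil3 (−1.17) completed the 10.

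The remaining members were within 2-fold. Ifitm6 gave 464, 506, 457 and 213 (−0.99), and Anxa1 and Lyz2 (both −0.27), Pglyrp1 (−0.26), Ly6g (−0.16) and Itgam (0.06) differed less. Chil1, Mmp9, Cd177, Stfa1, Stfa2, Stfa3 and Cybb were not measured on both arrays. Outside the list, and chosen after their values were seen, the neutrophil genes Itgb2l (154, 129, 144 and 42.4; −1.65, normexp −0.87) and Lrg1 (155, 194, 140 and 64; −1.01, normexp −0.47) also fell past 2-fold. The Wfdc21 probe was printed on several spots of each array, and the standard error of its difference between 9 spots on each array was 0.0247, which is technical and holds no variation between mice.

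Genes made earlier in the granulocyte lineage did not share the fall. Of 21 measured genes of primary granules and early granulocytes none passed 2-fold, 11 lay below 0 and the median was −0.03. Mpo, the myeloperoxidase gene, gave 135026, 125067, 139876 and 122623 (−0.07), Prtn3 differed by −0.15, Ctsg by 0.05 and Elane by −0.29. The members farthest from 0 were Fcnb (−0.64), Cebpe, a transcription factor that secondary granule genes need (1515, 1212, 1528 and 980; −0.53), Hp (−0.38) and Gfi1 (−0.30). The summed signal of the secondary and tertiary granule list was 128191 (WT), 120948 (Aspp1-/-), 116756 (p53-/-) and 57114 (Aspp1-/-p53-/-), and that of the primary granule list was 529031, 515159, 536178 and 492891. S100a8 and S100a9, with the highest signals given above for the first list, weigh heavily in its sum. In RNA of a sorted population, fewer mature neutrophils among the sorted cells and less granule RNA per cell cannot be told apart, and the part of either in the difference was not tested.

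**Figure D2:**
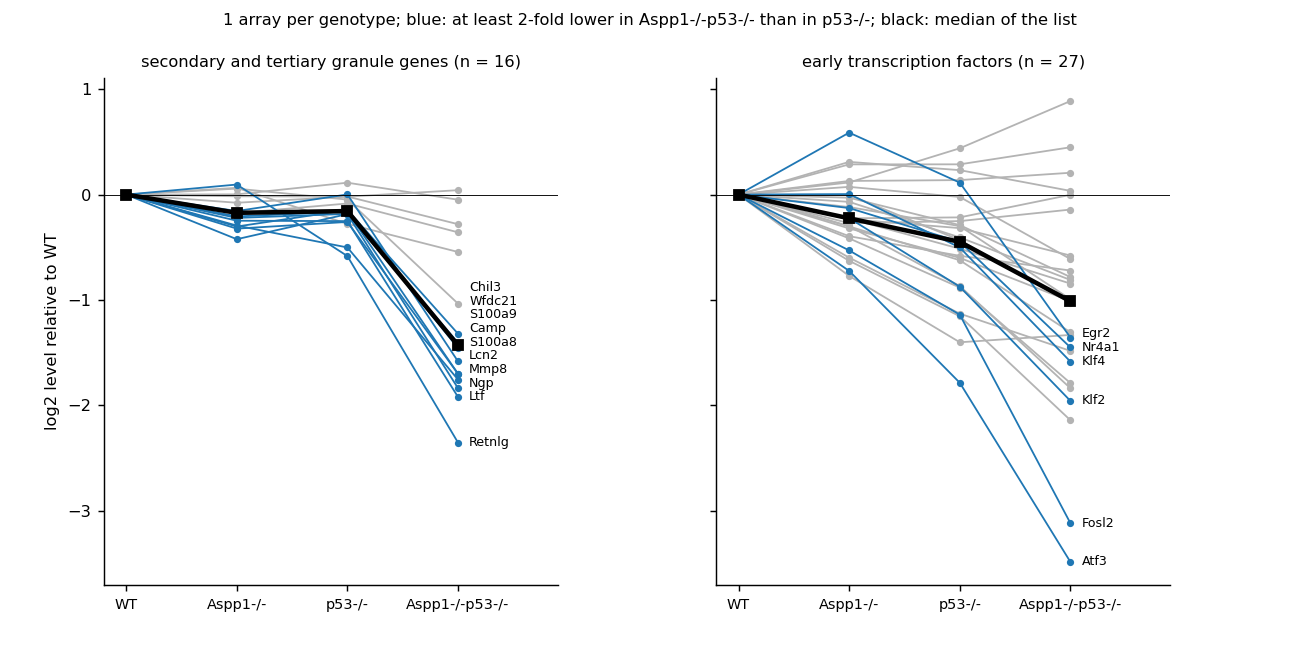
Log2 level relative to WT on the 4 arrays (1 per genotype) for 16 secondary and tertiary granule genes (left) and 27 early transcription factors (right); lines are genes, blue where at least 2-fold lower in Aspp1-/-p53-/- than in p53-/- cells, and the black line is the list's median. The granule medians were −0.17 (Aspp1-/-), −0.16 (p53-/-) and −1.43 (Aspp1-/-p53-/-), and the early gene medians −0.22, −0.45 and −1.01.

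The early transcription factors, whose genes are switched on within minutes of a stimulus, were the second group. Of 27 measured (of 30 listed), 6 were at least 2-fold lower and 21 were below 0, against 0.734% and 48.7% of all genes. The median was −0.49. Levels were lowest on the Aspp1-/-p53-/- array in 20 of 27, against 27.2% of all genes. That count is not separate from the difference, since a gene below 0 cannot be lowest on the p53-/- array. None was 2-fold higher, and the largest of 6 positive differences was that of Batf3 (0.45), at a signal of 54.1 in p53-/- cells.

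Fosl2, which encodes the AP-1 subunit FRA2, gave 7200 (WT), 5225 (Aspp1-/-), 3327 (p53-/-) and 779 (Aspp1-/-p53-/-) (−1.98). Atf3, a stress-induced member of the ATF/CREB family, gave 16562, 10504, 4890 and 1390 (−1.70). In both genes all 4 arrays differed and the order of levels ran from WT down to Aspp1-/-p53-/-. Egr2, a zinc finger factor induced through MAP kinase signalling, gave 2240, 3526, 2466 and 822 (−1.47), so that WT and p53-/- were alike and Aspp1-/- was the highest. Klf2, a factor of lymphocyte and endothelial quiescence, gave 111203, 99751, 61743 and 26902 (−1.08), Klf4 gave 19890, 20901, 14295 and 6229 (−1.08), and the orphan nuclear receptor Nr4a1 gave 225342, 216026, 168038 and 77474 (−1.001). Several others lay just short of 2-fold: Crem (−0.99, with −0.80 on its other probe), Nr4a2 (−0.97 and −1.04) and Klf6 (−0.91). The AP-1 genes Fos (118903, 114738, 98337 and 56132; −0.69), Fosb (−0.60), Junb (−0.59) and Jun (−0.40), and Egr1 (−0.49), were lower by less than 2-fold. For Fos, with 10 spots on each array, the standard error between spots was 0.02. Relative to WT the median of the list was −0.22 for Aspp1-/-, −0.45 for p53-/- and −1.01 for the doubly deficient cells, values that share arrays with the comparison made here, while the medians of all genes were 0.019, 0.027 and 0.029.

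Other genes of the early response gave smaller shifts with single members past 2-fold. Among 16 measured MAP kinase phosphatases and feedback inhibitors, Dusp5, a phosphatase of nuclear ERK (1464, 1166, 832 and 313; −1.29), and Spry1, an inhibitor of receptor tyrosine kinase signalling (7361, 6281, 3801 and 1743; −1.01, normexp −0.98), fell, Errfi1 (−0.68), Dusp1 (−0.65) and Dusp10 (−0.52) were lower within 2-fold, and the median was −0.13. None of 21 IER and mRNA decay genes passed the rule, with Zfp36, which destabilises AU-rich transcripts, at −0.91 and Ier2 at −0.64. Of 28 NF-kB subunits and targets 3 fell and 22 were below 0 (median −0.16). They were Cd83, an activation marker of dendritic cells and lymphocytes (716, 600, 390 and 102; −1.82), the chemokine gene Ccl4 (61388, 53730, 48218 and 20562; −1.11) and Il1b (232, 216, 153 and 66.1; −1.10, normexp −0.59). Ccl3 and Nfkbid (both −0.86), Tnfaip3 (−0.80) and Cxcl2 (−0.75) were lower within 2-fold, and Nfkbia, a direct NF-kB target, differed by −0.14.

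Promoter sequence is shown for 2 genes of each group, since these groups had the largest median differences. Each gene shown holds the motif marked, and of a gene's windows the one with most matches is printed. The genes shown are thus no guide to how common a motif is in a group. The windows are the 250 bases before the RefSeq start, on the plus strand of GRCm38.p6. Capitals in the windows of Egr2 (chr10:67537619-67537868) and Nr4a1 (chr15:101266596-101266845) mark TGACG on either strand, the core that CREB and ATF proteins recognise, and in Egr2 also the CArG box that serum response factor recognises.
Egr2: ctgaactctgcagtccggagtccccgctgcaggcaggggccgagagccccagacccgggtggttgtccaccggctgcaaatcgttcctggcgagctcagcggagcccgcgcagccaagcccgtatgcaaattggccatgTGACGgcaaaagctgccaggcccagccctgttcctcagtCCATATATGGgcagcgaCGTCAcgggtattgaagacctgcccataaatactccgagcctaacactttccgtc
Nr4a1: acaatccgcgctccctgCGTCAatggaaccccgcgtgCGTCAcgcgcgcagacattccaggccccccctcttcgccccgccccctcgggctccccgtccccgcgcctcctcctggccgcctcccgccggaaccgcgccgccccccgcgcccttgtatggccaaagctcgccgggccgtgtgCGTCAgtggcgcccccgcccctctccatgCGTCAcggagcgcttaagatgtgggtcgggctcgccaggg
Capitals in the windows of Ltf (chr9:111019042-111019291) and Ngp (chr9:110419558-110419807) mark TTGCNNAA on either strand, the core of the motif of C/EBP proteins, the family of the granulocyte factor C/EBPε.
Ltf: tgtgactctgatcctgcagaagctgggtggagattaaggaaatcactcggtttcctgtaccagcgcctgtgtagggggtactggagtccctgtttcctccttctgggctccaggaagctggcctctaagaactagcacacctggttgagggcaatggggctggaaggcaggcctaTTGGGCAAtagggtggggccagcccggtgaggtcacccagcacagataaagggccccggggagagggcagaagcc
Ngp: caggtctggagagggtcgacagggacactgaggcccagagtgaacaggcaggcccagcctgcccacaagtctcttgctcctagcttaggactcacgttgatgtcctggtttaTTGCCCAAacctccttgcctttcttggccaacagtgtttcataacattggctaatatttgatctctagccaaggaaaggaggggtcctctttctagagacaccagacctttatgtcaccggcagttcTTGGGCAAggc
TGACG was present in 16 of the 22 early genes with a window (72.7%) and in 19.8% of 27025 genes, and in none of 15 granule genes. The windows of the early genes were richer in CpG dinucleotides (median 19 a window) than all windows (6), and TGACG ends in one, so base composition moves with that share. TTGCNNAA was present in 8 of 15 granule genes (53.3%; Anxa1, Lcn2, Ltf, Ly6g, Mmp8, Ngp, Retnlg and S100a9), in 2 of 22 early genes and in 10.8% of all genes. The AP-1 motif TGANTCA was found in 2 of 22 early genes (9.09%) against 7.82% of all genes and in no granule gene, and the CArG box only in Egr2 among the early genes with a window. A match is a description of the sequence and does not show that a factor binds there.

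Targets of p53 were examined because Aspp1 is known as a partner of p53, which both genotypes lacked. Of 36 measured targets 1 was higher and 2 were lower than 2-fold, 20 lay below 0 and the median was −0.03. Plk2, a polo-like kinase gene, gave 1867 (WT), 1432 (Aspp1-/-), 1138 (p53-/-) and 419 (Aspp1-/-p53-/-) (−1.32). Pmaip1, which encodes the pro-apoptotic NOXA, gave 2232, 2100, 1312 and 526 (−1.20). Fas, a death receptor gene, gave 67.4, 47.6, 53.4 and 127 (1.36; normexp 0.93), a dim probe that was highest on the Aspp1-/-p53-/- array. Btg2, an antiproliferative gene that is also an early response gene, gave 14143, 14095, 10540 and 5116 (−0.93). Cdkn1a, the gene of the cell cycle inhibitor p21, gave 2530, 2345, 1551 and 818 (−0.81) with a standard error of 0.0161 between 10 spots an array, but its other probe differed by 0.04. The pro-apoptotic targets Bbc3 (4471, 3574, 2073 and 1870; −0.03) and Bax (0.07) and the p53 regulator Mdm2 (−0.11) differed little, although Bbc3 was lower in both genotypes without p53 than in WT. Among 24 genes of the BCL2 family and apoptosome only Pmaip1 passed 2-fold, Bmf (−0.77) and Bcl2l11 (−0.60) were lower within it, and the median was 0.00.

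Genes of quiescence gave a median of −0.20 over 25 measured members, 18 of them below 0. The 2 past 2-fold, Klf2 and Nr4a1, are also early transcription factors, and without genes that other lists hold the median was −0.01. Foxo3 (−0.80) and the glucocorticoid target Tsc22d3 (−0.62) were lower within 2-fold, and the cyclin-dependent kinase inhibitor gene Cdkn1c differed by −0.20. Genes of division were shifted slightly the other way. Of 33 genes of G2/M and mitosis 7 were below 0 and the median was 0.09, and of 35 genes of G1/S and DNA replication 8 were below 0 with a median of 0.05, but no member passed 2-fold. The largest were Cdk1 and Hmmr (both 0.17), Ccnd1 (0.42) and Tyms (0.37), while Mki67 read 31050, 31948, 30332 and 31069 (0.15).

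Some members of the lymphocyte activation and adhesion lists were among the largest falls. Cd28, the T-cell costimulatory receptor, gave 1522 (WT), 1056 (Aspp1-/-), 673 (p53-/-) and 254 (Aspp1-/-p53-/-) (−1.29). Cd38, an ectoenzyme of activated lymphocytes, gave 64.6, 51.5, 252 and 51 (−2.19), so that only the p53-/- array was high. Ncam1, a neural and natural killer cell adhesion molecule, had the same form at 92.8, 106, 317 and 67 (−2.12). Cd38 and Ncam1 each had 1 spot on the Aspp1-/-p53-/- array and no other measured probe. They belong with the dim genes described below that were high in p53-/- cells alone. Among 27 lymphocyte activation receptors 3 fell (Cd38, Cd83 and Cd28) and the median was −0.18, with Pdcd1lg2 (−0.98), Pdcd1 (−0.92) and the early activation marker Cd69 (19007, 21358, 16504 and 8379; −0.86) within 2-fold. Vcam1, the ligand of integrin α4β1 on marrow stroma, gave 176, 108, 112 and 39.9 (−1.37; normexp −0.64). The other stromal and endothelial genes included the niche chemokine Cxcl12 (178, 110, 71.4 and 36.5; −0.85) and Sparc (902, 1034, 647 and 1034; 0.79), and the median of 18 was −0.18.

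Of 23 genes of coagulation, complement and proteases 3 fell. Plaur, the urokinase receptor, gave 7971, 5623, 4628 and 1643 (−1.38), and F3, tissue factor, gave 288, 209, 129 and 35.7 (−1.73; normexp −0.84). In both the Aspp1-/-p53-/- array was the lowest and WT the highest. The third was Mmp8, described with the granule genes, so that Plaur alone kept its call under normexp, and Cd59a, an inhibitor of complement lysis, was at 0.77.

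Secreted factors showed falls in few members. Il10, an anti-inflammatory cytokine, gave 115, 99.8, 97.8 and 35.4 (−1.35; normexp −0.59; standard error 0.0697 between spots), and with Il1b made 2 of 31 cytokines and growth factors, whose median was −0.03. Under normexp none of the 31 passed 2-fold. The list of 22 chemokines and their receptors had 18 members below 0 and a median of −0.17, with Ccl4 past 2-fold. Lif (−0.65) and Osm (−0.64) were within it. No cytokine or growth factor receptor of 53 passed 2-fold. The decoy receptor Il1r2 (449, 301, 186 and 87; −0.98) and Il12rb2 (−0.76) lay farthest below 0 and Il1r1 (0.50) and Lifr (0.49) farthest above.

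Lists of other cell types that the sorted fraction could hold moved by less. All 20 measured B-lineage genes lay below 0, with a median of −0.18 and none past 2-fold. Lef1 gave 231, 191, 318 and 219 (−0.42), Vpreb3, a gene of precursor B cells, 1193, 1014, 1651 and 1227 (−0.31), and Blnk 3032, 2128, 3221 and 2457 (−0.28). In Lef1 and Vpreb3 the p53-/- array was the highest and the Aspp1-/-p53-/- array was near WT, whereas in Blnk p53-/- was near WT (0.06) and Aspp1-/-p53-/- lower (−0.21). The list's medians relative to WT were −0.28 (Aspp1-/-), 0.17 (p53-/-) and 0.00 (Aspp1-/-p53-/-). Medians were 0.01 for monocyte and dendritic cell genes, −0.07 for T and natural killer cell genes, −0.08 for lymphoid-primed progenitor genes, −0.05 for megakaryocyte genes (Thbs1 −1.07, normexp −0.48), 0.04 for erythroid genes and −0.07 for mast cell, basophil and eosinophil genes (Hdc −0.81). The summed signal of the B-lineage list was 101702, 94744, 102680 and 88622 and that of the monocyte and dendritic cell list 202708, 199869, 193893 and 179976. None of 42 haematopoietic stem cell genes passed 2-fold, the median was −0.06, and Rarb (−0.37) and Tek (−0.33) lay farthest from 0. The 46 interferon response genes, which pIpC induces, had a median of 0.00 and no member past 2-fold, with Ifit3 at 117, 87.8, 276 and 165 (−0.63).

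**Figure D3:**
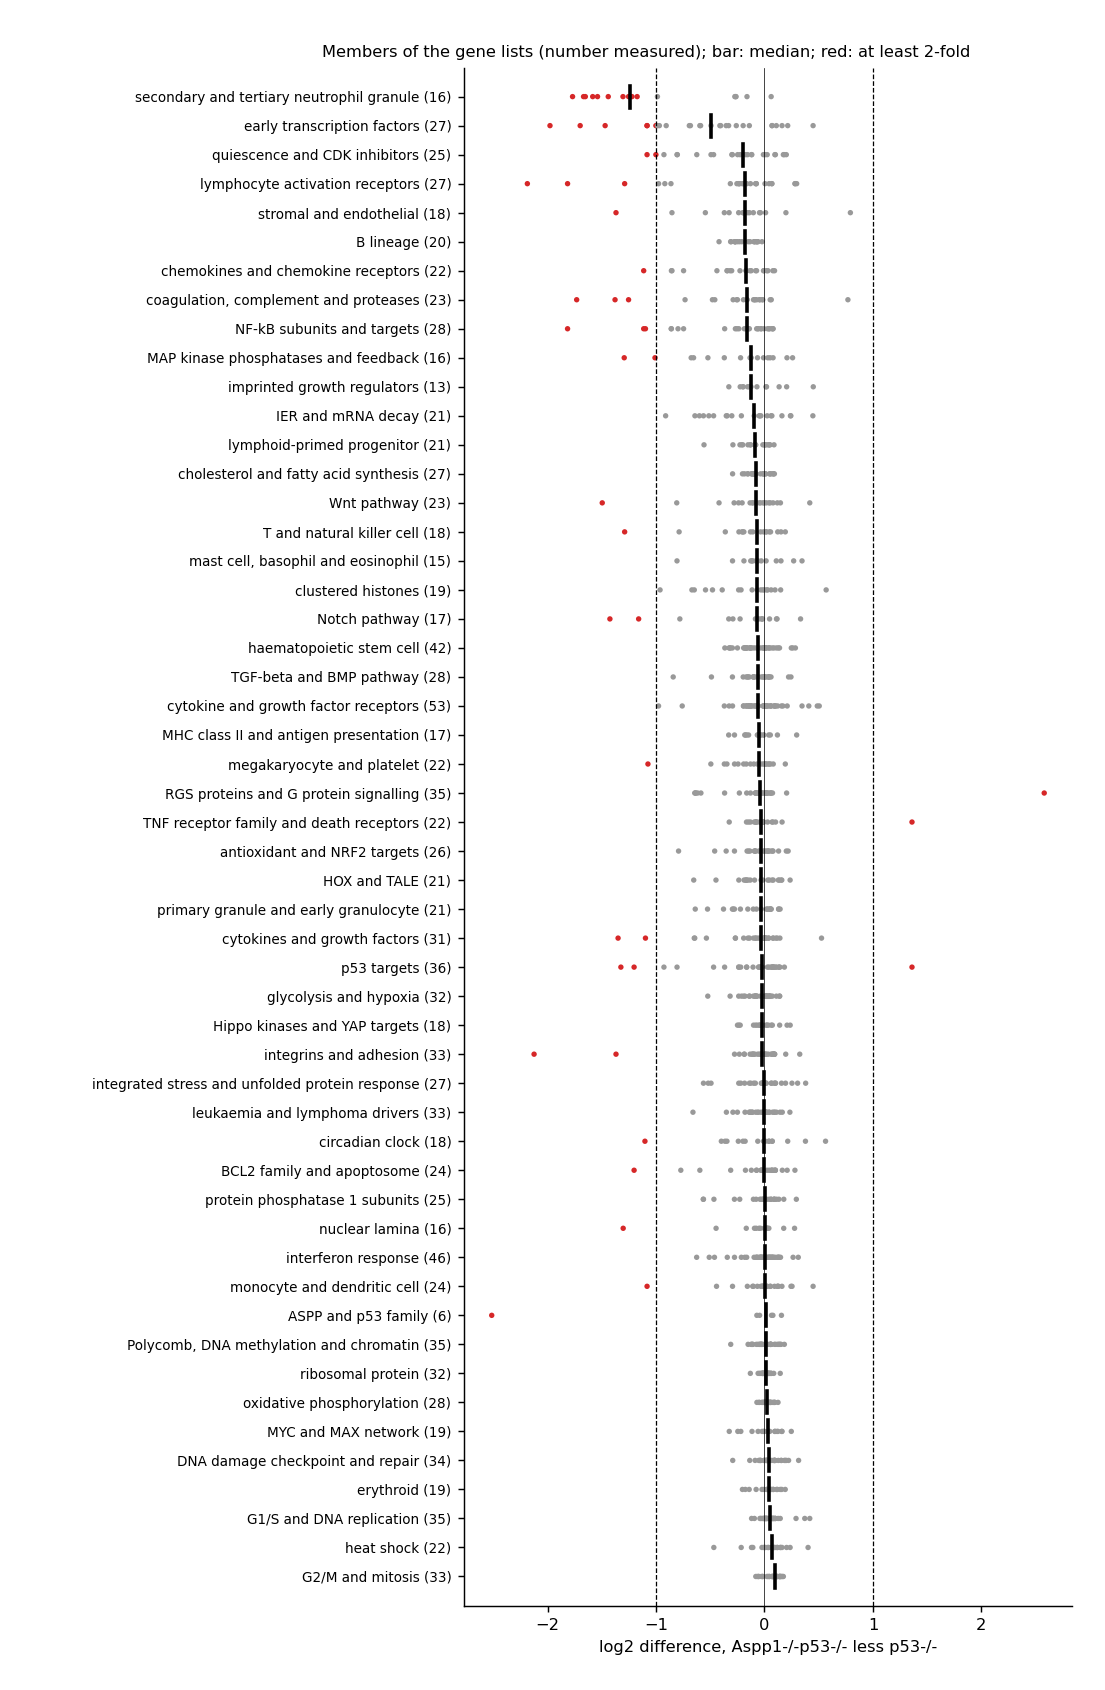
Log2 difference, Aspp1-/-p53-/- less p53-/-, for the measured members of the gene lists, sorted by median; points are genes, red where at least 2-fold, and black bars are medians. The granule list (median −1.24) and the early transcription factors (−0.49) stand below the other lists, whose medians lie between −0.20 and 0.09.

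In the lists of signalling pathways few genes passed 2-fold and the medians were close to 0. Members below 0 were 13 of 17 in the Notch list, 16 of 23 in the Wnt list and 19 of 28 in the TGF-β and BMP list (median −0.06). Of all genes 48.7% were below 0. In the Notch list of 17, Nrarp, a feedback inhibitor and target of Notch, gave 271, 230, 236 and 81.2 (−1.43; normexp −0.83), and the Notch antagonist Numb gave 124, 112, 245 and 101 (−1.16; normexp −0.80), so that Nrarp was low in Aspp1-/-p53-/- and Numb high in p53-/- cells alone. The ligand gene Jag2 gave 1479, 1131, 702 and 377 (−0.78), the target Hes1 differed by −0.23, and the median was −0.07. Jag2 lies 1080 kb from the Ppp1r13b probe and is also given below among the genes around it. Under normexp no Notch gene passed 2-fold. Fzd1, a Wnt receptor (43.8, 54.9, 127 and 41.7; −1.496, normexp −0.69), was the one member of the Wnt list past 2-fold (median −0.07 of 23). Skil (−0.84) and Smad7 (−0.49), feedback inhibitors of TGF-β signalling, were lower within 2-fold. Genes of the pathways that ASPP proteins are known to touch did not pass the rule, which 1.1% of all genes passed, so few would be expected here. The medians were −0.02 for 18 Hippo kinases and YAP targets (Lats2 −0.25, Yap1 −0.22) and 0.00 for 25 protein phosphatase 1 subunits (Ppp1r12b −0.56). Gnaz, a G protein α subunit (45.5, 47.1, 38.2 and 210; 2.58), was the only higher member of 35 RGS and G protein genes, with 0.66 on its other probe. Mylk, myosin light chain kinase (102, 79.7, 72.1 and 392; 2.56), was also higher, and its other probe differed by −0.47.

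The nuclear lamina list had a median of 0.00 over 16 genes and 1 fall: Lmna, which encodes lamins A and C, gave 5376 (WT), 3220 (Aspp1-/-), 1570 (p53-/-) and 587 (Aspp1-/-p53-/-) (−1.30). Ciart, a repressor of the circadian clock, gave 66.3, 62.1, 99.4 and 42.7 (−1.10; normexp −0.48) as 1 of 18 clock genes (median −0.01). No member passed 2-fold among ribosomal proteins (median 0.02, from −0.13 to 0.15), oxidative phosphorylation (0.03, from −0.07 to 0.12), glycolysis and hypoxia (−0.02), cholesterol and fatty acid synthesis (−0.08), heat shock (0.07), the integrated stress and unfolded protein response (−0.01) or NRF2 targets (−0.03, Nqo1 −0.79). The same held for the MYC network (0.04), DNA damage checkpoint and repair (0.04), Polycomb and chromatin genes (0.02), HOX and TALE genes (−0.03), leukaemia and lymphoma drivers (−0.01), MHC class II and antigen presentation (−0.05), imprinted growth regulators (−0.12) and clustered histones (−0.07, H2bc4 −0.96). In the TNF receptor family (median −0.04) Fas alone passed 2-fold (none under normexp), and in the integrin and adhesion list (−0.02) Ncam1 and Vcam1 did (Ncam1 alone under normexp). Over all lists 37 of 1184 distinct genes measured were lower and 3 higher, against 0.734% and 0.363% of all 13484 genes. The lists were chosen with earlier results of these data known, so their share cannot be read as an enrichment. No member past 2-fold was held by 29 of the 53 lists.

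The largest fall of a measured gene was that of Fam71a, with 2578 (WT), 2748 (Aspp1-/-), 1624 (p53-/-) and 105 (Aspp1-/-p53-/-) (−3.84, 14.3-fold lower). The last array stood far below the other 3. Its probe lies on the minus strand of chromosome 1, 8.08 kb from that of Atf3 on the same strand. Mybpc3, a cardiac myosin-binding protein gene (398, 404, 295 and 61.4; −2.15), Apol8 (311, 281, 175 and 45.2; −1.83, normexp −0.95), Pabpn1l (597, 620, 517 and 152; −1.65) and Iqsec3 (9481, 7772, 7428 and 2299; −1.58) were likewise lowest on that array. Among bright genes outside the lists, chosen after their values were seen, Rgcc, a regulator of the cell cycle, gave 36103, 29539, 14239 and 5373 (−1.29), the histone gene H2ac18 gave 22959, 20396, 16932 and 7082 (−1.14), Pde3b, a cyclic nucleotide phosphodiesterase, 1604, 1995, 2528 and 1053 (−1.15), and Tlr12 1106, 1662, 1871 and 819 (−1.08). Rgcc and H2ac18 were highest in WT, whereas Pde3b and Tlr12 were highest in p53-/- cells. Pabpn1l, Iqsec3, Smim5 and Iqsec1 were also chosen after their values were seen. Smim5 (1867, 2029, 2082 and 850; −1.18) and Iqsec1 (1466, 1568, 1544 and 675; −1.08) were alike on the first 3 arrays.

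The largest rises were of dim genes. Foxe3, a lens transcription factor, read 36.6 in p53-/- and 373 in Aspp1-/-p53-/- cells (3.47) and was not well above background in WT or Aspp1-/- cells. Mageb1 gave 34.7, 34.4, 38.3 and 350 (3.31) and Olfr700, an olfactory receptor gene, 49.3, 38.7, 39.5 and 245 (2.75). Emilin3 (33 and 248 on the 2 arrays compared; 3.02), Gpr141 (36 and 198; 2.58), Tcaf3 (56.6 and 287; 2.46), Dnah7a (39.5 and 181; 2.31), Krt13 (59 and 252; 2.21) and Ccr10 (29.5 and 110; 2.02, normexp 0.98) followed. The only higher genes outside the dimmest group were Nabp1, which encodes a single-stranded DNA binding protein (243, 228, 188 and 594; 1.77), and 4831440E17Rik (225, 189, 185 and 448; 1.39). Of 6 other probes for the higher genes 4 had the same sign and 0 passed 2-fold, and of 4 other probes for the lower genes all had the same sign and 2 passed 2-fold (those of Camp and DXBay18). Among genes within 2-fold, 60.1% of other probes had the same sign.

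The 4 arrays separate the genes past 2-fold by which array stood apart. Of 13425 genes above background on 4 arrays 33 (0.246%) were higher and 97 (0.723%) lower. In 60 of the 97 the Aspp1-/-p53-/- array was farther than the p53-/- array from the mean of WT and Aspp1-/-, and their median signal in WT and Aspp1-/- was 1204. In the other 37 the p53-/- array was farther, with a median signal of 64.2 in WT and Aspp1-/- and 219 in p53-/- cells. Eml5 (46.1, 46.2, 369 and 38.6; −3.14), Rergl (64.2, 58.7, 311 and 55.9; −2.36), Cd38 and Ncam1 belong to this second set, as do Gm9785, Bahcc1, Oas1d, Azin2, Utp14b and Lhfpl5 (−1.98 to −1.80). Rin1 (254 and 39.9; −2.56), which was not well above background in WT or Aspp1-/- cells, also read high in p53-/- cells only. In the second set the Aspp1-/-p53-/- level was close to that of WT while the p53-/- array alone was high, and no gene of it reached a signal of 500 in WT and Aspp1-/-. Of the 33 higher genes the Aspp1-/-p53-/- array was farther in 32, with a median signal of 57.5 in WT and Aspp1-/-.

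**Figure D4:**
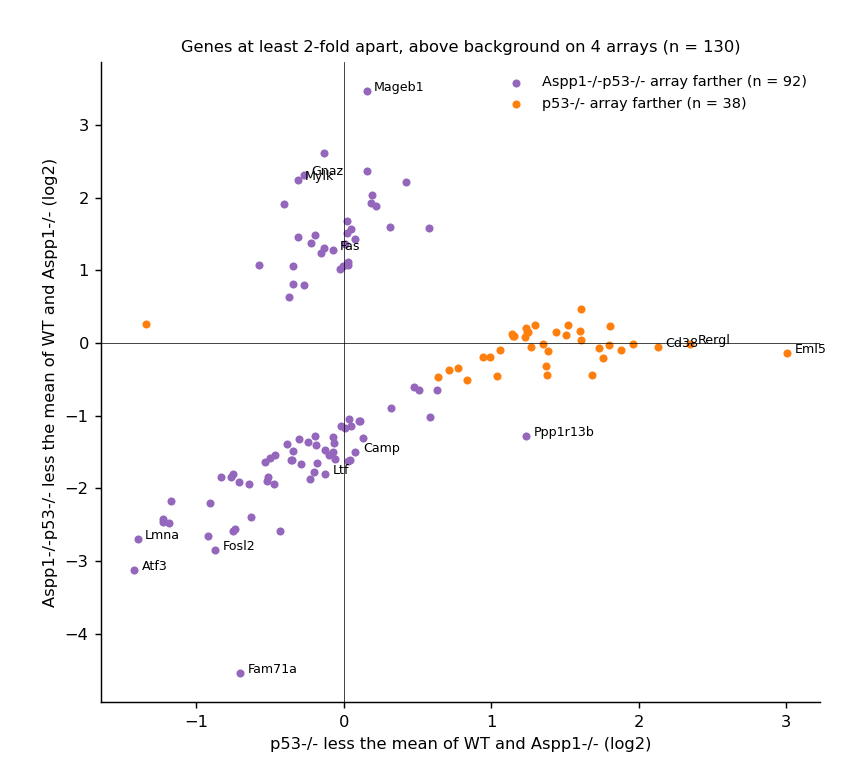
Position of the p53-/- array (horizontal) and the Aspp1-/-p53-/- array (vertical) relative to the mean of WT and Aspp1-/-, in log2, for 130 genes at least 2-fold apart and above background on 4 arrays. In 92 genes (purple) the Aspp1-/-p53-/- array lies farther from that mean and in 38 (orange) the p53-/- array does, nearly all of these with the p53-/- array high and the Aspp1-/-p53-/- array near 0.

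Loss of Aspp1 in cells that keep p53 gave the comparison with no shared array. Aspp1-/- less WT had a standard deviation of 0.193 over 13425 genes against 0.238 for Aspp1-/-p53-/- less p53-/-, and 6 genes (0.0447%) were at least 2-fold higher and 11 (0.0819%) at least 2-fold lower. Ppp1r13b was the only gene past 2-fold in both (−2.62 with p53 and −2.52 without), and no gene passed it in opposite directions. Across genes, which are not independent replicates, Pearson's r between the differences was 0.21 and Spearman's coefficient 0.26. Of the 97 genes lower without p53, 71 (73.2%) were also below 0 with p53, against 44.6% of all genes, with a median of −0.18, and 96 of them lay within 2-fold there. Of the 33 genes higher without p53, 11 (33.3%) were above 0 with p53, against 55.4% of all genes.

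For the granule genes the median difference was −0.17 with p53 and −1.24 without it, with Ltf at −0.25 and −1.67, Camp at −0.16 and −1.58, and S100a9 at −0.17 and −1.30. The early transcription factors had medians of −0.22 and −0.49. Atf3 stood at −0.72 and −1.70, Fosl2 at −0.53 and −1.98 and Klf2 at −0.22 and −1.08, whereas Egr2 was higher with p53 (0.59) and lower without it (−1.47). Plaur (−0.57 and −1.38), Vcam1 (−0.78 and −1.37) and Lmna (−0.81 and −1.30) were lower in both, and only the second of each pair passed 2-fold. The same held for the transcriptional repressor gene Hic1 (−0.73 and −1.25, normexp −0.63 for the second), which was chosen after its values were seen. With 1 array per genotype the difference between these differences has no test.

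**Figure D5:**
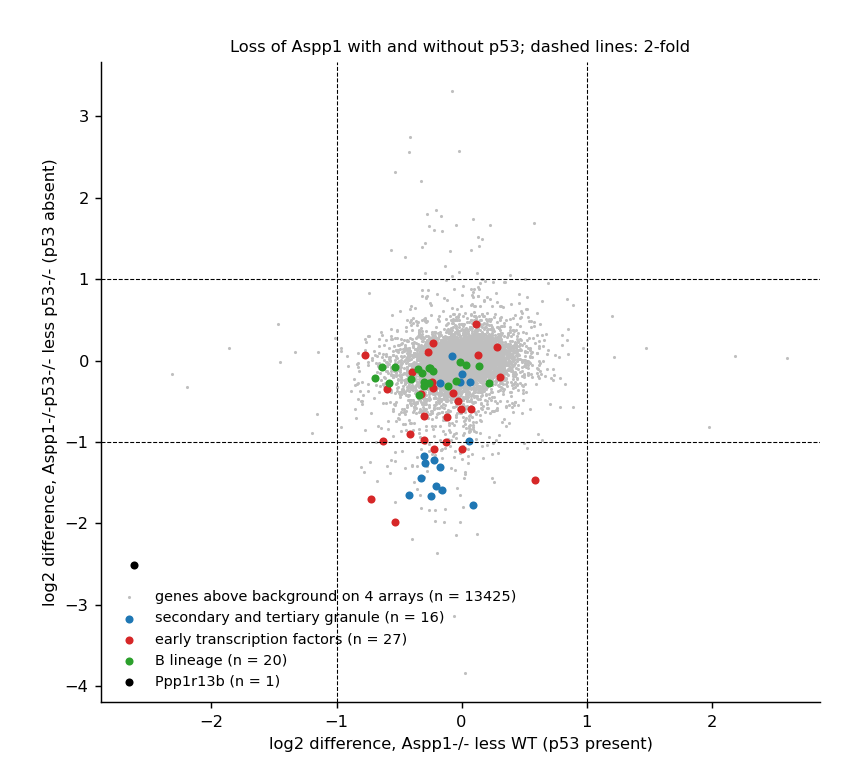
Log2 difference of Aspp1-/-p53-/- less p53-/- (vertical) against Aspp1-/- less WT (horizontal) for 13425 genes above background on 4 arrays, with granule genes in blue, early transcription factors in red, B-lineage genes in green and Ppp1r13b in black; dashed lines mark 2-fold. Ppp1r13b alone lies past 2-fold on both axes, and most granule genes lie past it on the vertical axis only.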

How the data were processed

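RNA of LSK cells was labelled with 1 dye and hybridised to Agilent mouse arrays, 1 pool of 3 mice per genotype. Spot intensity was extracted by the authors using Feature Extraction from Agilent (10.7.3.1), as recorded per the file headers; the deposited processed intensity is background-subtracted, linear and not scaled between arrays. The deposited files also hold, as other values, flags for spots well above background, saturated spots and outlier spots. The authors' value table holds log2 values, used only as an alternative, and its scaling was not stated. Over 26465 probes compared, its differences of Aspp1-/-p53-/- less p53-/- were those of the scanner files plus a constant of 0.0098. The largest deviation from that constant was 0, so for this comparison the table repeats the main values. Probe positions are mm9, per the file headers, while gene names and promoter windows are from RefSeq (GRCm38.p6).

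Here control spots and outlier spots (171 on the p53-/- array and 172 on the Aspp1-/-p53-/- array) were left out, and log2 intensities were averaged over the spots of a probe and set relative to the array's 75th percentile. Of 55675 probes, 26854 were named by accession and 4380 by symbol or synonym. A gene was represented by the probe with the highest mean level over the 4 arrays among those well above background on both arrays. The median standard deviation between spots of a probe was 0.0539 and 0.0554 on the log2 scale; the scanner error is the error model of the extraction software. No spot of a gene probe was saturated. The number of arrays limits the precision.

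With 1 array on each side no test is possible, and a rule of size was used, an absolute log2 difference of at least 1. The counting was run on simulated data with less noise than the spread seen here and with planted changes larger than the rule. That run checks the counting only and does not show how reliable the calls are. Genes named were the targeted genes and their families, the 20 largest differences in each direction, list members past 2-fold with the next 4, genes past 2-fold in both Aspp1 comparisons, the 8 largest bounds in each direction, gate, lineage and sex check genes, and those nearest the rule; a few others are said to be chosen after their values were seen or are examples of their list. The comparison and its 53 gene lists were chosen with earlier results of these data known. Alternatives were normexp background correction (limma 3.58.1, R 4.3.3), median centring, quantile and loess normalization, the mean of a gene's probes, other filters on dim probes, outlier spots kept, other fold rules and the authors' table. Slide row was the same for both arrays (columns 1 and 4), so a column effect cannot be told apart from genotype. Some genes and 1 gene list are not reported here.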

Additional observations from a re-analysis of the deposited data

How the results depend on the processing

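The counts of 49 higher and 99 lower genes depended on the background correction and the rule. Normexp background correction gave 20 higher and 47 lower genes, all 67 of them among the 148; a 1.5-fold rule gave 120 and 297, a 3-fold rule 26 and 26, and including bounds (genes above background on 1 of the 2 arrays) 235 and 336. Under the other alternatives run there were 33 to 53 higher and 92 to 109 lower genes, the share of lower genes among those past the rule lay between 63.4% and 74.6%, and Ppp1r13b lay between −2.53 and −2.49. Among all the alternatives, median centring and the authors' table each shift every difference by a constant. They can thus move only values close to the rule or to 0, and are no separate check of the counts, signs or lists. Of 72 named genes past 2-fold, 53 remained past it under normexp correction (Mob3b, at 1.66, stood at 0.999 and Olfr297, at 1.69, at 0.85) and at least 69 under the others where all could be measured. None changed sign. Of the granule genes 9 or 10 were past 2-fold under each of these alternatives. No list whose median lay more than 0.1 from 0 changed sign, and 5 early transcription factors instead of 6 were past 2-fold under quantile or loess normalization and in the authors' table, and 7 with the mean of a gene's probes. Leaving out a replicate was not possible with 1 array per genotype. No paired analysis was possible because each genotype has 1 array and the labels give no replicate numbers.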

Other observations

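Genes above background on only 1 of the 2 arrays give bounds. Each was taken against the dim probe's own level or the lowest level well above background on the dim array, whichever was higher. For the genes named here it was the latter. Of 977 such genes 186 were at least 2-fold higher and 237 at least 2-fold lower in Aspp1-/-p53-/- cells. The largest higher bounds were those of Rbfox3, a neuronal splicing factor (signal 447 in Aspp1-/-p53-/- cells, at least 19.5-fold), Myt1l (442, at least 19.2-fold) and Il2ra, the interleukin 2 receptor α chain (388, at least 16.9-fold), followed by Dbpht2, Opn1sw, Adcy10, Ccbe1 and Gm14137. Each was not well above background on the other 3 arrays. The largest lower bounds were those of Olfr463 (signal 462 in p53-/- cells, at least 18-fold) and Tnxb, an extracellular matrix gene (430, at least 16.8-fold), followed by Spdye4b, Rpl10l, Olfr881, Uimc1, Ppp1r1a and Zbbx. All of these were high on the p53-/- array alone. Olfr463 read 4.6 in WT, 4.8 in Aspp1-/- and 7.7 in Aspp1-/-p53-/- cells, and Tnxb 16.6, 34.9 and 17. On the other 3 arrays none was well above background, except Tnxb in Aspp1-/- cells.

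The genes around Ppp1r13b on chromosome 12 were compared because alleles near a targeted gene travel with it in breeding. Of 69 other genes measured within 5 Mb of its probe 0 passed 2-fold, against 1.1% of all genes, so few would be expected. Zfp386 (−0.82), Jag2 (−0.78) and Tedc1 (−0.70) were farthest from 0, and in Aspp1-/- less WT they stood at −0.65, −0.45 and −0.85. Ncapg2 (0.61 and 0.47), Cdc42bpb (−0.60 and −0.30) and Crip1 (−0.595 and −0.55) also had the same sign in both comparisons. The part of alleles linked to Ppp1r13b in these differences was not tested.

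Among 8192 probes above background on both arrays without a RefSeq gene, 114 (1.39%) were at least 2-fold higher and 142 (1.73%) at least 2-fold lower.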
